A study of Drosophila melanogaster with 17 samples.

Results

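The pool described here is the small RNA of Drosophila Schneider 2 (S2) cells that survives NaIO4 oxidation, followed through 24 h of metabolic labelling. It was measured in the 8 oxidised libraries of the 17 libraries of the series, chosen by their label, at 0, 0.25, 0.5, 1, 3, 6, 12 and 24 h. S2 cells are a macrophage-like embryonic line, here of wild type genotype, and the cells were given 500 µM 4-thiouridine (s4U) for the stated time. All 8 RNAs were treated with iodoacetamide (IAA), which makes reverse transcriptase read an incorporated s4U as C, so that a labelled molecule carries a T>C mismatch. Each RNA was split after IAA, and the other portion gave an unoxidised library of the same time. Those 8 unoxidised libraries serve below as the comparison, and the library with neither s4U nor IAA was not used. There is 1 library per time and treatment, so no time has a replicate, a test between 2 libraries compares those libraries, and p-values over times measure the spread between times.

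In flies a miRNA hairpin is cut into a duplex of a guide strand and a passenger strand. Most guides enter Argonaute1 (Ago1), whereas many passenger strands and some guides are sorted into Argonaute2 (Ago2), the effector of RNA interference. Hen1 methylates the 3′ end of small RNAs held by Ago2, and this 2′-O-methyl group protects them from periodate, which blocks the other small RNAs from ligation. Oxidised libraries are therefore used to read the Ago2-type pool. A mature strand starts with a label-free stock that is diluted as new strands are made, loaded and methylated, so the time at which T>C appears reports the arrival of new molecules.

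Oxidised libraries held 19074278 to 42511487 small RNA reads, of which 1386443 to 5610093 (7.27% to 13.2%) were miRNA reads. The mismatch table of these libraries lists 97 arms of 64 hairpins. Where arms shared nucleotides 1 to 18, only the one with most reads was kept, which left 91 arms. The strand with more reads in the unoxidised libraries was called the guide, which gave 55 guides, 34 passengers and 2 arms without a role. The listed arms took 81.8% ± 5.15 of the miRNA reads (SD, n = 8 libraries). S2 cell identity was checked against miRNA markers in RPM, scaled to the small RNA reads of a library. The 11 S2-type arms summed to 12712 to 41058 RPM in the oxidised libraries and 342782 to 387236 RPM in the unoxidised ones. Among markers of other tissues, the late larval and adult arms summed to at most 12.6 RPM in an oxidised and 3.49 RPM in an unoxidised library, and the muscle arms to at most 2.73 and 1.30 RPM. The early embryo arms summed to 1.84 to 7.53 RPM in the oxidised and 19.6 to 26.9 RPM in the unoxidised libraries, and the ovary arms to 0.690 to 2.22 RPM and 23.5 to 41.6 RPM. The nervous system arm was not listed in the oxidised table and reached 0.309 RPM in an unoxidised library, and the midgut arms were listed in neither.

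The sequences of arms on which the results turn are given below, each 5′ to 3′ from the hairpin of the deposited mismatch table and cut at the arm's most common read length in the oxidised libraries, with the seed (nucleotides 2 to 8) in capitals. The first 6 are among the 8 arms with most reads, the next 4 are passengers among the earliest labelled arms or those with most label, and the last 4 are arms with slow or no detected label.
bantam-5p: cCGGUUUUcgauuugguuugacu
miR-252-5p: cUAAGUACuagugccgcaggag
miR-33-5p: gUGCAUUGuagucgcauuguc
miR-2a-2-5p: cCUCAUCAagugguugugaua
miR-33-3p: cAAUACAAcuucagugcaagcu
bantam-3p: uGAGAUCAuuuugaaagcu
miR-980-5p: aGUUUUUCauuuggccuggcuagc
miR-965-5p: gGGGUAAAacuguacguuauaug
miR-317-5p: uGGGAUACacccugugcucgcu
miR-279-5p: gUGGGUGGggguccaguguuuc
miR-966-5p: uGUGGGUUgugggcuguguggcu
miR-2280-5p: cCGUUUUCuuagcuuggcaau
miR-303-5p: cUUGGUUUagguuucacagga
miR-4940-5p: gCGGAUAUagaucauuggu
Within nucleotides 1 to 18, bantam-5p and miR-980-5p have 9 U each, miR-33-5p has 7 and miR-252-5p and miR-33-3p have 4 each, so the chance of a read to show label differs between arms, and T>C was taken per U. A read with several U is counted at each of them, so the counting intervals and the tests between 2 libraries are too narrow.

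By the BDGP6 annotation (dm6, 1-based), the bantam hairpin lies at 3L:642208-642288 and that of miR-252 at 3R:13464219-13464311 on the minus strand, both outside protein-coding genes of their strand. The miR-33 hairpin (3L:19797961-19798059) lies in an intron of SREBP, the activator of lipid synthesis genes, and that of miR-2a-2 (2L:19569490-19569561) in an intron of spi, which encodes an epidermal growth factor receptor ligand. The miR-965 hairpin (2L:243035-243141) lies in an intron of kis and that of miR-966 (2L:6045627-6045713) in an intron of Pfas. The hairpins of miR-2280 (2L:1831685-1831799) and miR-4940 (3L:9144593-9144697) overlap annotated exons of c-cup and nwk. For miR-980 (X:280172-280269), miR-303 (X:4366179-4366248), miR-279 (3R:29215585-29215684) and miR-317 (3R:10091126-10091217) no protein-coding gene of the same strand contains the hairpin.

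A few arms made up most of the pool, and passenger strands were prominent among them. The 12 arms with the highest mean share held 61.4% ± 6.67 of the miRNA reads (SD, n = 8), and all 12 were read in every oxidised library. Bantam-5p, the passenger of the growth-promoting bantam hairpin, had the highest mean share, with 15.3%, 13.4%, 9.64%, 8.75%, 13.1%, 12.7%, 9.76% and 8.74% of miRNA reads at 0, 0.25, 0.5, 1, 3, 6, 12 and 24 h. It was the first arm in the 6 libraries from 0.25 to 12 h, behind miR-184-3p at 0 h and miR-252-5p at 24 h, and every value lay above its unoxidised range, whose highest was 1.30%. MiR-252-5p, a guide that begins with C, held 6.78%, 10.996%, 8.89%, 6.20%, 9.96%, 11.6%, 8.46% and 11.04% over the same times, against at most 1.36% in an unoxidised library. MiR-33-5p, the guide of the SREBP intron, held 7.35% to 10.3%, and its passenger miR-33-3p 0.462% to 5.42%. The passenger miR-2a-2-5p held 3.40% to 9.79%.

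**Figure D1:**
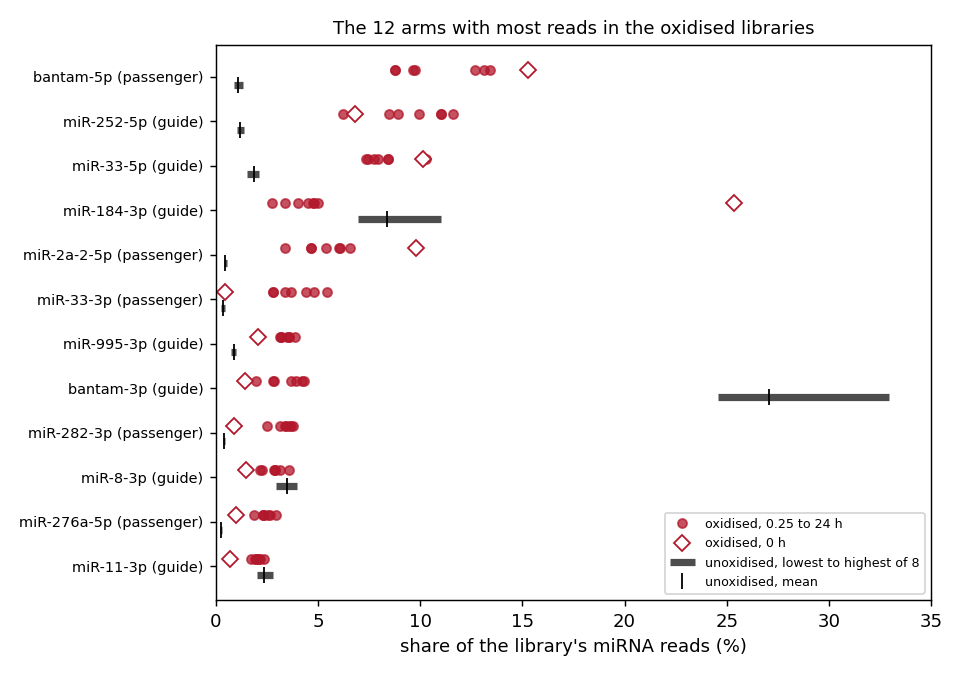
Share of a library's miRNA reads (x axis, %) for the 12 arms with the highest mean share in the oxidised pool; circles are the 7 labelled oxidised libraries, diamonds the oxidised 0 h library, bars the lowest to highest of the 8 unoxidised libraries and ticks their mean. Bantam-5p held 8.74% to 15.3% in the oxidised libraries and 1.06% on average in the unoxidised ones, whereas bantam-3p averaged 3.13% and 27.1%.

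The guides with most unoxidised reads differed in how much of the pool they held. MiR-184-3p held 6.82% ± 7.53 of oxidised miRNA reads, or 4.17% on average without the 0 h library, and 8.35% of unoxidised ones. Bantam-3p, the guide that represses the proapoptotic gene hid, held 3.13% ± 1.06 of oxidised miRNA reads and 27.1% on average in the unoxidised libraries. MiR-14-3p, a guide with roles in cell death and fat metabolism, held 0.621% and 10.8%. MiR-8-3p, a guide of the miR-200 family, held 2.65% ± 0.653 and 3.46%, and miR-11-3p, a guide with the K-box seed from an intron of E2f1, 1.86% ± 0.508 and 2.36%. MiR-995-3p from an intron of Cdk2 held 3.26% ± 0.551 in the oxidised libraries and 0.869% in the unoxidised ones. The passengers miR-282-3p and miR-276a-5p held 3.04% ± 0.955 and 2.25% ± 0.606 in the oxidised libraries, against 0.376% and 0.237% in the unoxidised ones. The reads of miR-276a-5p cannot be told from those of miR-276b-5p.

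The strand and first-nucleotide make-up of the pool differed from that of the unoxidised libraries in every time pair. Passengers took 41.1% to 48.1% of the listed arms' reads in the oxidised libraries and 4.57% to 5.75% in the unoxidised ones. Arms that begin with C took 37.6% to 53.0% of oxidised reads and 7.12% to 8.71% of unoxidised reads, and arms that begin with U took 22.8% to 39.8% and 84.1% to 86.3%. The mean differences were 38.5 points for passengers, 36.9 for C and −55.9 for U, each with the same sign in 8 of 8 pairs. Since a passenger is by definition the strand with fewer unoxidised reads, its unoxidised share had to be low, and no test is given for it. For C and for U the exact two-sided sign-flip p was 0.0078125, the smallest that 8 pairs allow and equal after Benjamini-Hochberg adjustment over the 5 shares compared. Of the 12 leading arms 5 begin with C, 4 with U, 2 with A and 1 with G. The deposited tables list 97 arms for the oxidised and 135 for the unoxidised libraries, so the shares are of unequal lists.

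In its make-up the unlabelled oxidised library was unlike the 7 labelled ones. MiR-184-3p, a guide that acts in the germ line and nervous system of the fly, held 2.73% to 4.97% in the labelled libraries, against 25.4% at 0 h. The 5 leading arms held 31.3% to 46.0% of miRNA reads in the labelled libraries, against 67.4% at 0 h. MiR-988-5p held 0.804% to 1.28%, against 3.48% at 0 h, whereas miR-33-3p held 2.78% to 5.42%, against 0.462% at 0 h. Without the 0 h library the 12 arms held 59.4% on average, and 11 of the 12 kept their place among the first 12. Whether the make-up drifted with labelling time was tested by the slope of read counts on log2(1 + h) over the 8 libraries (edgeR quasi-likelihood, TMM). Of 91 arms 0 (0%) rose and 0 (0%) fell at an adjusted p under 0.05, and 10 had an unadjusted p under 0.05. DESeq2 called 1, miR-996-3p, with a log2 slope of 0.17 and an adjusted p of 0.0170.

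Label accumulated in the pool through 24 h without a plateau, and the gain was smallest in the first interval. Summed over the 67 arms with at least 1000 reads over U in all 8 libraries, T>C per U was 0.0262%, 0.0282%, 0.0461%, 0.0850%, 0.197%, 0.331%, 0.584% and 1.13% at 0, 0.25, 0.5, 1, 3, 6, 12 and 24 h. The gain was 0.00826 percentage points per hour in the first interval, 0.0714 and 0.0778 in the next 2, and 0.0422 to 0.0558 in the 4 intervals after 1 h. From 12 h to 24 h T>C went up in 64 of the 67 arms. By slope on log2(1 + h) over the 8 libraries, T>C rose in 64 of 66 arms (97%) and fell in 0 (0%) at an adjusted p under 0.05 (edgeR quasi-likelihood). The 2 that did not pass were miR-281-1-5p (log2 slope 0.31 ± 0.26 SE, adjusted p = 0.232) and miR-2280-5p (0.48 ± 0.36 SE, adjusted p = 0.232).

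Few strands carried label at 0.25 h and nearly all by 24 h. For every arm, a labelled library was set against the oxidised 0 h library by Fisher's exact test (one-sided), with Benjamini-Hochberg adjustment over the arms of that time. After 0.25 h 5 arms were past the test of 74 tested (6.76%), after 0.5 h 20 of 74 (27%), and after 1 h 46 of 76 (60.5%). The 3 h library gave 58 of 72 (80.6%) and the 6 h library 62 of 70 (88.6%). The 12 h library gave 62 of 69 (89.9%) and the 24 h library 69 of 73 (94.5%). As controls in the same reads, T>A passed in 3 arms and T>G in 1 arm at 0.25 h, so the 5 arms of T>C at that time are little above the controls. From 0.5 h on T>A passed in 0 to 2 arms and T>G in 0 to 2 arms. An arm was said to first carry label at the earliest time from which it passed at every later time tested. This was 0.25 h for 4 arms, 0.5 h for 14, 1 h for 25, 3 h for 14, 6 h for 5, 12 h for 2 and 24 h for 5. Another 4 arms did not pass at 24 h, 18 could not be tested there, and 1 of these, miR-4968-3p, has no U in the window.

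Depth moved with this order. The median arm first labelled at 0.5 h had 74760 reads over U in its least covered library, and the median arm first labelled at 24 h had 840. Where at least 10000 reads over U were asked of both libraries, the 0.25 h library gave 3 of 41 arms, the 0.5 h library 17 of 42 and the 1 h library 39 of 48. From 3 h on every arm so covered was past the test, which were 40, 40, 39 and 44 arms in the last 4 libraries. With each arm thinned to the same reads in the 8 libraries, 2, 10, 38, 53, 58, 60 and 64 of 67 arms passed at the 7 times. A first time of 6 h or later was thus seen only in arms with fewer than 10000 reads in at least 1 of the libraries.

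**Figure D2:**
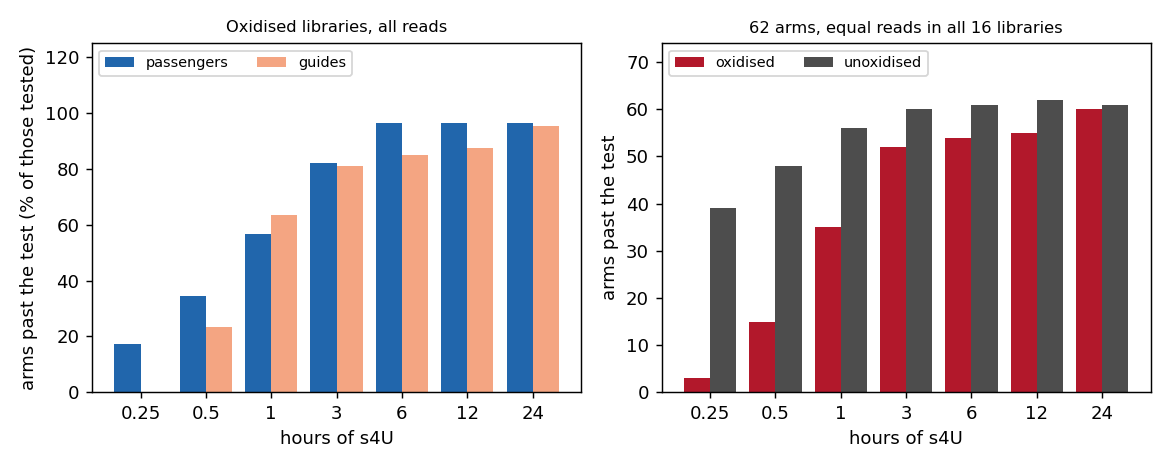
Arms past the T>C test at each labelling time; the left panel gives the oxidised libraries as a percentage of the arms tested, with passengers and guides side by side, and the right panel the number of 62 arms measured in both treatments, with every arm thinned to the same reads in all 16 libraries. At 0.25 h the thinned count was 3 in the oxidised and 39 in the unoxidised libraries, and at 24 h it was 60 and 61.

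The 4 arms labelled from 0.25 h on by this test were all passengers, but some guides were tested against the raised 0 h values given below. In guide reads of 18 to 20 nt, 0.234% carried a T>C at 0.25 h and 0.0936% at 0 h, and in passenger reads 0.454% and 0.198%. In longer reads these shares were 0.111% and 0.121% for guides and 0.123% and 0.119% for passengers. MiR-980-5p had 19 C among 6660 reads over U at 0.25 h (0.285%, Clopper-Pearson 95% interval 0.172% to 0.445%) and 1 among 6102 at 0 h, with an adjusted Fisher's exact p of 0.00159. MiR-965-5p had 13 C among 5380 reads at 0.25 h (0.242%) and 2 among 7095 at 0 h (adjusted Fisher's exact p = 0.0165). These values rest on few molecules. MiR-8-5p reached 0.0409% at 0.25 h against 0.0167% at 0 h (adjusted Fisher's exact p = 0.0339). Bantam-5p, the deepest arm, reached 0.0273% against 0.0184%, a difference of 0.00889 points (adjusted Fisher's exact p = 3.91e-15). MiR-14-5p also passed at 0.25 h (0.119% against 0.0496% at 0 h) but not at 0.5 and 1 h, so its first time was 3 h.

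Some of these early values did not climb steadily. MiR-980-5p carried 0.0164%, 0.285%, 0.323%, 0.153%, 0.535%, 0.422%, 0.976% and 1.68% T>C over the 8 times, and miR-965-5p 0.0282%, 0.242%, 0.335%, 0.190%, 0.333%, 0.334%, 0.754% and 0.925%. Both were lower at 1 h than at 0.25 h. In the unoxidised libraries the same arms were already at 1.29% and 0.994% at 0.25 h. Bantam-5p, in contrast, rose at each step, with 0.0184%, 0.0273%, 0.0412%, 0.0453%, 0.143%, 0.242%, 0.352% and 0.691%.

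Arms labelled from 0.5 h on included 10 guides and 4 passengers. Among those with the highest T>C at that time were miR-7-5p (0.212%), the guide of a hairpin known for photoreceptor and ovary development, the passenger miR-317-5p (0.149%), miR-34-5p (0.0925%), a guide linked to ageing, and miR-305-5p (0.0733%). MiR-184-3p reached 0.0601% and miR-12-5p 0.0589%. The abundant guides miR-252-5p (0.0577% at 0.5 h against 0.0324% at 0 h), miR-33-5p (0.0293% against 0.0173%), miR-8-3p (0.0430% against 0.0291%) and miR-995-3p (0.0217% against 0.0129%) passed at this time too. All 12 leading arms of the pool carried label from 1 h or earlier.

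**Figure D3:**
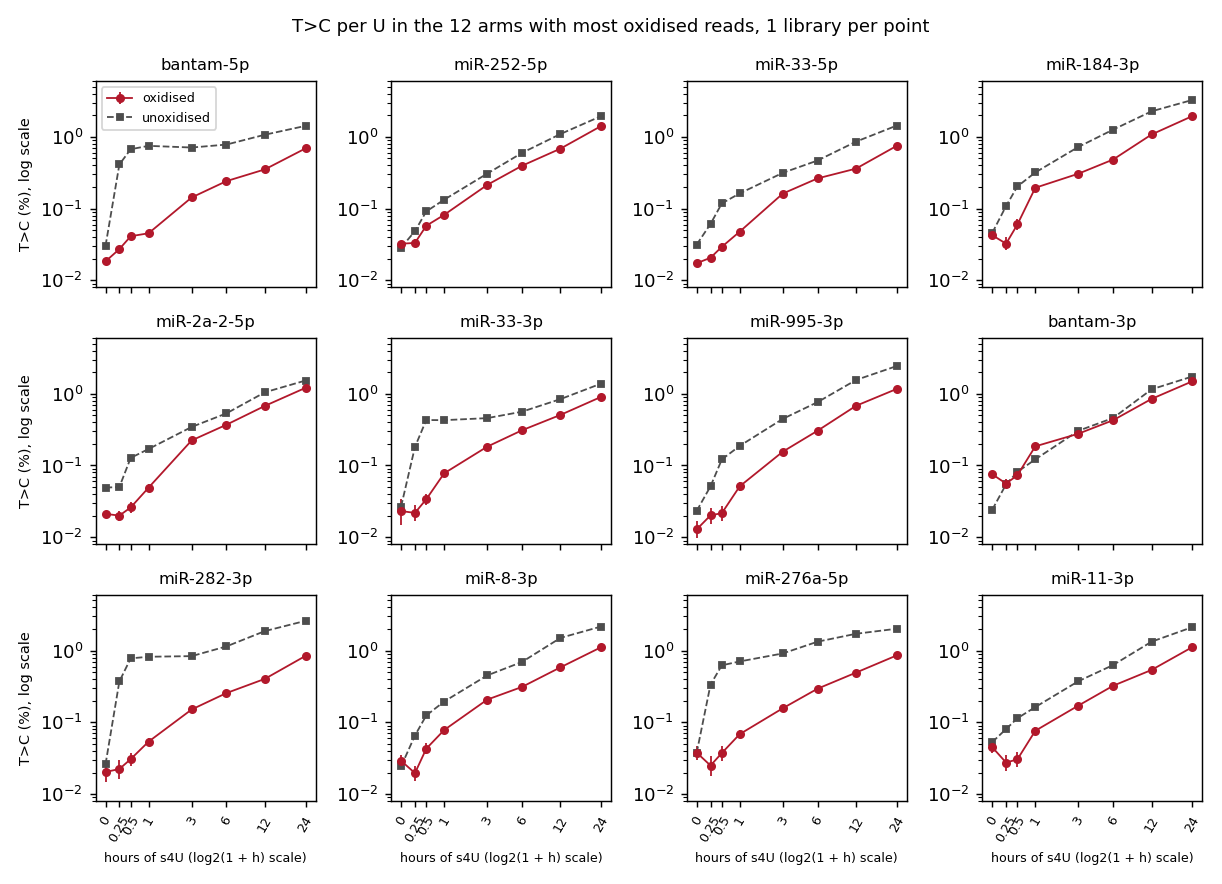
T>C per U (y axis, %, log scale) against hours of s4U (x axis, log2(1 + h) scale) in the 12 arms with most oxidised reads, with 1 library per point and Clopper-Pearson 95% intervals for the oxidised values. Bantam-5p had 0.0273% in the oxidised and 0.413% in the unoxidised library at 0.25 h, whereas bantam-3p had 0.0560% and 0.0547%.

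After 24 h the arms spread over a broad range. MiR-8-5p, the passenger of the miR-8 hairpin, had the most label with 3.43% T>C (interval 3.30% to 3.57%), 3.42 points above its 0 h value. Its nucleotide 3 stood at 6.45%, and without that nucleotide the arm was at 2.43%. Next came miR-996-5p (2.22%), an arm without a role whose hairpin neighbours that of miR-279, then miR-279-5p (2.19%, interval 1.71% to 2.75%), the guide miR-305-5p (2.18%) and miR-7-5p (2.20%, 2.13 points above 0 h). The intervals of these 4 overlapped. Without its nucleotide 6 (5.18%) miR-279-5p, with 811 reads at 24 h, was at 1.19%. Without its nucleotide 3 (4.89%) miR-305-5p was at 1.73%. Without their highest nucleotides miR-996-5p and miR-7-5p were at 1.98% and 2.01%. The median of the 73 arms tested was 1.07 points above 0 h, and the 24 h intervals overlapped in 67 of the 72 pairs of neighbours in the order, so most neighbouring ranks could not be told apart.

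**Figure D4:**
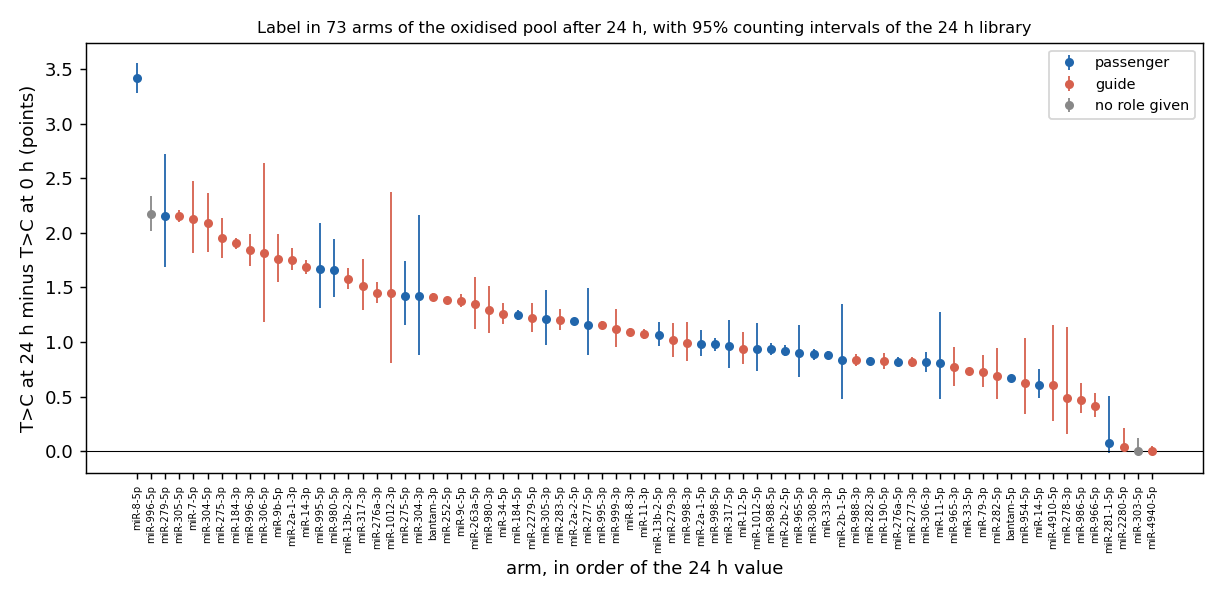
T>C at 24 h minus T>C at 0 h (y axis, percentage points) for the 73 arms of the oxidised pool tested at 24 h, in order of that value, with Clopper-Pearson 95% intervals of the 24 h library. MiR-8-5p stood at 3.42 points, the median arm at 1.07, and the last 4 arms were not past the test.

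At the low end, the leading arm of the pool was among the slowest. Bantam-5p gained 0.672 points by 24 h and miR-33-5p 0.732, whereas miR-252-5p gained 1.38, bantam-3p 1.41 and miR-184-3p 1.90. Of the arms past the test at 24 h, miR-966-5p had the least, 0.432% against 0.0211% at 0 h. MiR-281-1-5p had 1 C among 1053 reads at 24 h (0.0950%) and did not pass. MiR-2280-5p had 1 C among 2600 reads (0.0385%) and did not pass either. MiR-303-5p had 0 of 3184 reads, which allows up to 0.0942%, and miR-4940-5p 0 of 8575, which allows up to 0.0350%. Both limits lie below the 0.432% of miR-966-5p. MiR-4940-5p was at no more than 0.0403% in an unoxidised library.

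The course between 3 and 24 h was read from the share of the 24 h label that an arm already carried. The 0 h-subtracted value at 3 h was 15.5% of that at 24 h for the median of the 64 arms past the test at 24 h with enough reads in all libraries, and the 12 h value 49.4%. The highest 3 h shares were those of miR-954-5p (41.7%), miR-7-5p (37.4%), miR-965-5p (33.9%), miR-980-5p (31.3%) and miR-9b-5p (27.1%). MiR-954-5p, with 1496 reads over U in its least covered library, passed at 3 h but not at 6 h, so its first time was 12 h. In miR-7-5p the 12 h value (2.25%) was as high as the 24 h value (2.20%). Lowest were miR-263a-5p (5.88%) and miR-275-5p (5.07%), and then miR-279-3p, miR-965-3p and miR-282-5p with negative shares of −13.2%, −15.2% and −28.2%, which had raised 0 h values.

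Raised 0 h values were found in guides with small shares of the pool, and to a lesser degree in the leading arm bantam-3p. That arm had 0.0560% T>C at 0.25 h against 0.0756% at 0 h. Of its reads of 21 nt and longer, 0.105% carried a T>C at 0.25 h, against 0.642% at 0 h. Its shorter reads went the other way. MiR-279-3p had 0.0167% T>C at 0.25 h, against 0.410% at 0 h (11 C among 2680 reads). MiR-965-3p had 0.0938% at 0.25 h against 0.396% at 0 h, and miR-282-5p 0.0549% against 0.391%. MiR-14-3p had 0.0861% at 0.25 h and 0.205% at 0 h. Tested against these 0 h values, miR-279-3p first passed at 12 h and miR-965-3p at 24 h. MiR-282-5p passed at 1 h, in the library described in the next paragraph, but not again until 24 h. Its first time was therefore 24 h. With the 0.25 h library as background, an alternative added after these values were seen, 14, 47, 57, 64, 68 and 73 arms passed at 0.5 to 24 h.

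The 1 h library stood apart in long reads of some guides, both scarce ones and the leading arm bantam-3p. In bantam-3p, 0.848% of reads of 21 nt and longer carried a T>C at 3 h, against 1.74% at 1 h. In the leading guides miR-252-5p and miR-33-5p these shares were 0.713% and 0.959% at 3 h, against 0.252% and 0.258% at 1 h. MiR-282-5p had 0.196% T>C at 3 h against 0.889% at 1 h, and miR-306-5p 0.0911% against 0.709%. In reads of 21 nt and longer, 1.09% of miR-282-5p reads and 2.90% of miR-14-3p reads carried a T>C at 3 h, against 6.29% and 4.78% at 1 h. In their reads of 18 to 20 nt the 1 h shares were 1.34% and 1.19%. For miR-306-5p, 25 of only 364 longer reads (6.87%) carried a T>C at 1 h. Over all guides, 1.68% of the 18 to 20 nt reads and 0.971% of the longer reads carried a T>C at 3 h, against 0.558% and 0.574% at 1 h. In reads of 18 to 20 nt alone, added after these values were seen, 14 of 54 arms passed at 1 h, and 34 of 52 at 3 h. What sets the 1 h library apart was not tested.

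Which strand of a hairpin gained more label depended on the background that was subtracted. In 20 hairpins with both strands measured, the passenger gained more than its guide in 17 at 0.25 h and in 17 at 0.5 h, by a median of 0.0462 and 0.0623 points. At 1, 3, 6, 12 and 24 h it did so in 9, 10, 10, 10 and 9 of 20, and at 24 h the median difference was −0.139 points. These counts rest on the 0 h library. Without its subtraction the passenger was higher in 10, 10, 3, 9, 9, 9 and 7 of 20 at the 7 times, and the median difference was 0.000311 points at 0.25 h and 0.00102 at 0.5 h. At 1 h that median was −0.101 points and after 24 h −0.252 points. With the 0.25 h library subtracted it was higher in 10, 5, 6, 7, 9 and 6 of 20 from 0.5 h on, and the medians at 1 h and 24 h were −0.129 and −0.312 points. By the test against 0 h, 5 of 29 passengers and 0 of 43 guides passed at 0.25 h, 10 of 29 and 10 of 43 at 0.5 h, 17 of 30 and 28 of 44 at 1 h, and 27 of 28 and 41 of 43 at 24 h. At 24 h the passenger carried less in bantam (0.691% against 1.49% in the guide), miR-14 (0.659% against 1.89%) and miR-305 (1.22% against 2.18%), and more in miR-8 (3.43% against 1.12%), miR-279 (2.19% against 1.42%) and miR-995 (1.69% against 1.17%). Without the highest nucleotide of each strand, miR-279-5p was at 1.19% and miR-279-3p at 1.11%.

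Against the unoxidised libraries of the same RNA, the oxidised pool carried less label at every time. In the 62 arms measured in both, the pooled 0 h-subtracted T>C of the oxidised libraries was 0.00203, 0.0199, 0.0588, 0.170, 0.304, 0.555 and 1.10 points at the 7 labelled times. In the unoxidised libraries it was 0.0526, 0.111, 0.169, 0.411, 0.621, 1.40 and 2.08 points. The mean difference was −0.376 ± 0.379 points (SD, n = 7 times), lower in 7 of 7 times, with an exact two-sided sign-flip p of 0.015625, the smallest 7 pairs allow. Per arm, 57 of 62 (91.9%) were lower and 0 higher after Benjamini-Hochberg adjustment of the same exact test. MiR-2a-1-3p, miR-275-3p, miR-304-5p, miR-317-3p and miR-966-5p did not pass. All 7 differences of an arm share the same oxidised and unoxidised 0 h libraries, so they are not independent. A raised oxidised 0 h value, as in some guides, lowers all 7 of them. Without subtraction the pooled mean difference was −0.391 points, and the per-arm test was not run in this way. MiR-304-5p was at 2.09 points in the oxidised library and 1.89 points in the unoxidised library at 24 h.

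In passengers the oxidised share of the unoxidised label climbed from a low start. In the 25 passengers, the oxidised value was 0.801%, 2.43%, 4.62%, 14.8%, 21.8%, 30.9% and 49.3% of the unoxidised value for the median arm at 0.25, 0.5, 1, 3, 6, 12 and 24 h. In the 37 guides it was −19.1% and 8.38% at the first 2 times, where raised 0 h values enter, and then 43.4%, 42.7%, 44.1%, 41.6% and 53.8%. The 43.4% is from the 1 h library, which stood apart in long reads of some guides. There the oxidised value was lower in 32 of 37 guides. It was 258% of the unoxidised one in miR-317-3p, 223% in miR-282-5p, 126% in miR-275-3p, 120% in miR-2a-1-3p and 112% in bantam-3p. The median oxidised passenger stood at 0.00205 points at 0.25 h, whereas the median unoxidised passenger stood at 0.445 points. MiR-275-5p was at 0.0166% in the oxidised library at 0.25 h and at 1.99% in the unoxidised one. MiR-282-3p had 0.0224% in the oxidised and 0.373% in the unoxidised library at that time, and miR-317-5p 0.0298% and 0.606%. With equal reads per arm in all 16 libraries, the first labelled time was later in the oxidised pool for 52 of 62 arms, the same for 9 and earlier for 1, miR-304-5p (1 h and 3 h). The 52 include miR-966-5p, which had no first time in the oxidised pool and 6 h in the unoxidised libraries. The 9 include miR-281-1-5p, which had no first time in either. Each first time was set against the 0 h library of its treatment, so a raised oxidised 0 h value can make it later.

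**Figure D5:**
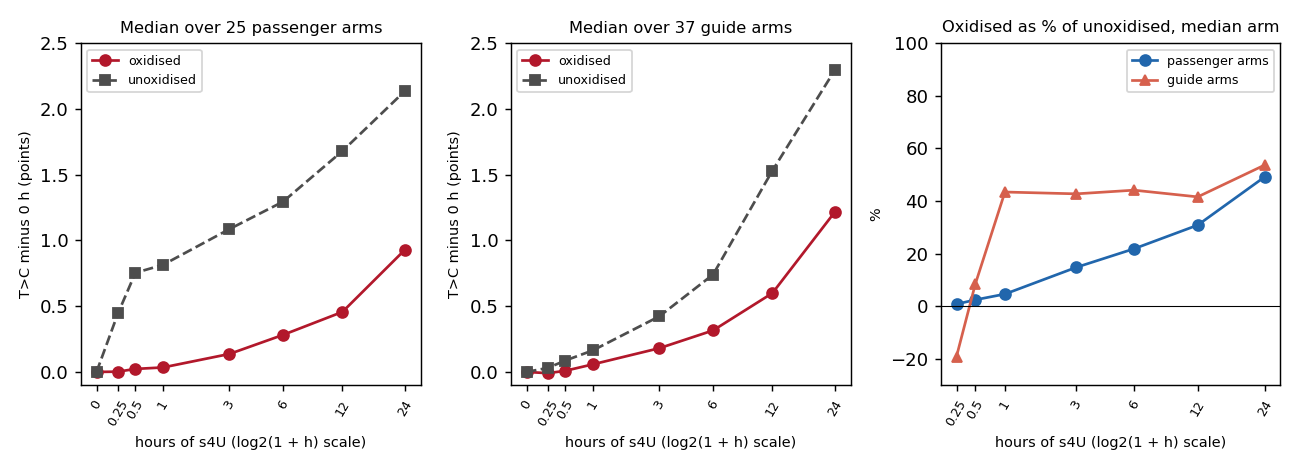
Median T>C above the 0 h library (y axis, percentage points) against hours of s4U (log2(1 + h) scale) in 25 passenger arms and 37 guide arms of the oxidised and unoxidised libraries, and the oxidised value as a percentage of the unoxidised value for the median arm. Passengers stood at 0.801% of the unoxidised value at 0.25 h and 49.3% at 24 h, and guides between 41.6% and 53.8% from 3 h on. At 1 h guides stood at 43.4%, in the library that stood apart in long reads of some guides.

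The 12 leading arms as a set held less of the labelled reads after 24 h than of all reads, and so did the passengers. These shares count reads, so an arm with few U, such as miR-252-5p with 4, shows fewer labelled reads at the same T>C per U. By reads with a T>C above the 0 h share, miR-252-5p held 12.3% of the labelled reads, bantam-5p 10.7%, miR-2a-2-5p 8.86%, miR-33-5p 7.93% and bantam-3p 6.43%, together 46.2%. Of all listed reads at 24 h the same arms held 13.8%, 10.96%, 7.61%, 9.70% and 4.63%, in the same order. MiR-2a-2-5p and bantam-3p thus held more of the labelled reads than of all listed reads. The 12 leading arms held 67.6% of the labelled reads and 75.03% of all listed reads at 24 h. Passengers held 37.8% of the labelled and 41.1% of all listed reads. MiR-305-5p, with 2.20% of the listed reads at 24 h, held 5.10% of the labelled ones, since 13.2% of its reads carried a T>C against 5.57% of bantam-5p reads.

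Of 15 arms on a list of strands taken to sort into Ago2, 13 are in the table and held 27.7% of the oxidised miRNA reads. Of the 12 that could be tested, 3, 4, 9, 11, 12, 12 and 12 passed at the 7 times, where 6.76%, 27%, 60.5%, 80.6%, 88.6%, 89.9% and 94.5% of all arms passed. Their median gain at 24 h was 0.926 points (0.610 to 3.42), against 1.07 for all arms. MiR-277-3p, a guide that is loaded into both Argonautes, carried 0.0388%, 0.0239%, 0.0435%, 0.0725%, 0.170%, 0.288%, 0.417% and 0.856% over the 8 times and first passed at 1 h. MiR-184-5p reached 1.26% at 24 h, miR-305-3p 1.22%, miR-13b-2-5p 1.10%, miR-988-5p 0.952%, miR-2b-2-5p 0.940%, miR-276a-5p 0.857% and miR-2b-1-5p 0.833%. MiR-34-3p had too few reads to test.

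The K-box guides, which target the motif of that name in Notch pathway transcripts, were represented by 3 tested sequences. All 3 first passed at 1 h and passed at each later time, at times when 60.5% to 94.5% of all arms passed. The 1 h library is the one that stood apart in long reads of some guides. At 24 h they gained 1.75 points (miR-2a-1-3p, whose reads are shared with its near-identical copies), 1.58 (miR-13b-2-3p) and 1.07 (miR-11-3p). Of 20 mirtron arms, whose hairpins are released by splicing and not by Drosha, 3 are in the table; miR-1012-5p first passed at 3 h and miR-1012-3p at 24 h, and they reached 0.975% and 1.504%. In the miR-277, miR-317 and miR-34 cluster, all 5 arms tested passed at 3 h and later, where 80.6% to 94.5% of all arms did. Their gains at 24 h were 0.817 (miR-277-3p), 1.16 (miR-277-5p), 1.51 (miR-317-3p), 0.961 (miR-317-5p) and 1.26 points (miR-34-5p). The first pass of these 5 was spread from 0.5 h (miR-34-5p and miR-317-5p) to 3 h (miR-277-5p), with the other two at 1 h.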

How the data were processed

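RNA of 18 to 30 nt was sequenced, per the labels' protocols. The submitters' processing notes name cutadapt 1.7.1, Bowtie 1.2.2, Picard and the build dm6, with no settings. The mismatch tables that the authors deposited hold, for each position of an arm, counts of reads with each nucleotide. Their library tables are counts too, of all small RNA and of miRNA. Tables by position and by read length are a signal in RPM as deposited; multiplied by the library's total, 100% of the position values came out whole (tolerance 0.001). The oxidised mismatch table lists arms from a mean of 5.24 RPM.

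T>C is the share of C among the reads covering U at positions 1 to 18. Tests of 2 libraries asked for 1000 such reads in both and an adjusted p under 0.05. A first time was given only to arms tested at 24 h, a condition added after let-7-5p had been seen to pass at few times. Clopper-Pearson 95% intervals, and the limit of 3 counts for a count of 0, cover counting error only. Slopes used edgeR 4.0.16 (quasi-likelihood; TMM and filterByExpr for read counts, reads over U as offset for T>C) and DESeq2 1.42.0 in R 4.3.3. All else was computed in Python 3.11.15 with scipy 1.17.1, pandas 2.3.3 and numpy 2.4.6, and drawn with matplotlib 3.10.9. Thinning used seed 7. The tests were tested on simulated data. Hairpins were matched to the annotation by identifier, 62 of 64. Each oxidised library was paired with the unoxidised library of its time, which is of the same RNA.

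The members, lists and tests were chosen with earlier results of these data known. Arms named are the 12 with most reads, up to 10 labelled earliest, the 5 highest and 5 lowest at 24 h, those not past the test at 24 h, the 5 highest and 5 lowest 3 h shares, and list members. Others, such as miR-14-3p, miR-306-5p and the strand pairs at 24 h, were chosen after their values were seen, as was the paired test of strand and first-nucleotide shares. Alternatives covered U positions, minimum reads, background, thinning, scaling, tools and leaving out libraries.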

Additional observations from a re-analysis of the deposited data

Results flagged for a closer look

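Among the 8 oxidised libraries, the 0 h library lay far from the other 7 in 5 shares by Dixon's test at 95%, which flags about 1 in 20 groups by chance. Tested were the shares of the 12 leading arms and their sum, and the passenger, first C and first U shares. The miRNA share of small RNA reads and the number of small RNA reads were tested too. MiR-184-3p held 25.4% of its miRNA reads (2.73% to 4.97% in the others), miR-995-3p 2.05% (3.16% to 3.88%), miR-282-3p 0.898% (2.48% to 3.77%) and miR-11-3p 0.705% (higher in each of the others, at most 2.36%). Arms that begin with U took 39.8% of its listed reads, against 22.8% to 30.7% in the others. These are shares of 1 total, so they do not move independently, and the cause was not tested.

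The pooled T>C above 0 h differed between the treatments, with a mean over the 7 labelled times of −0.376 points for oxidised minus unoxidised (exact two-sided sign-flip p = 0.015625).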

How the results depend on the processing

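Counts of arms past the T>C test moved with the read length, the U positions and the depth used. With at least 10000 reads, 3 arms passed at 0.25 h, and 40, 39 and 44 at the last 3 times, where fewer arms were tested. With equal reads per arm, 2 passed at 0.25 h and 10 at 0.5 h. With 1 U position per arm, 3, 6, 23, 34 and 41 passed at 0.25, 0.5, 1, 3 and 6 h, and 21 first carried label by 1 h, against 43. At 0.25 h, 2 passed without the highest U position, 8 with adjustment over all arms and times, and 3 by reads of every length, counted per read. Reads of 18 to 20 nt gave 13, 14, 34 and 34 at 0.5, 1, 3 and 6 h, and 14 first labelled by 1 h. The last 2 settings were chosen after seeing the data, and the causes were not tested. As controls, T>A gave 3, 0, 0, 2, 1, 0 and 0 arms at the 7 times and T>G 1, 0, 2, 1, 2, 1 and 0. Since no arm passed at 24 h for either, the count first labelled by 1 h had to be 0.

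DESeq2 called 1 arm for a slope of read counts. The median strand difference at 6 h, 0.00344 points, became −0.0779 points without subtraction and −0.141 points with the 0.25 h library subtracted, both chosen after seeing the data. With 1 library left out in turn, 62 to 67 arms rose in T>C and 0 fell, and 0 changed in reads in either direction. The pooled difference between treatments was −0.430 to −0.276 points, the share of the 12 leading arms 59.4% to 62.7%, and the passenger difference 37.9 to 38.8 points. The C and U differences were 35.7 to 38.1 and −57.5 to −54.9 points. MiR-184-3p averaged 4.17% without the 0 h library, against 6.82%. The other 193 values of the comparisons under an alternative stayed within 1.5 times the reported count, kept direction and side of the threshold, or moved by less than 1 SD; 1 of them, the count of arms first labelled by 3 h without the 1 h library, cannot change by its construction. No paired analysis was possible because each time has 1 library per treatment, beyond the pairing by time that the comparison with the unoxidised libraries already uses.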

Other observations

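Some arms carried C at a U position in all or most libraries, also at 0 h, and none of them could be tested at 24 h. MiR-986-3p had 33.3% C over its 3 U positions at 24 h and at 0 h, and miR-4943-5p had 7.48% at 24 h and 7.69% at 0 h over 13 U positions. Let-7-5p, a late larval and adult miRNA with few reads here, had 13.8% at 24 h and 8.42% at 0 h. MiR-308-3p had 2.01% at 24 h and 5.83% at 0 h.

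Reads of bantam-3p and bantam-5p differed in length in the oxidised pool. The most common length was 19 nt for bantam-3p, with 27.4% of its reads, and 23 nt for bantam-5p, with 78.5%. In bantam-3p, 0.269% of reads of 18 to 20 nt carried a T>C at 0.25 h and 0.0548% at 0 h, whereas of the longer reads 0.105% did so at 0.25 h and 0.642% at 0 h.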
